A study of Mus musculus with 686 samples.

Results

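The mature strands of the miR-132 and miR-212 locus listed here, mmu-miR-132-3p, mmu-miR-212-3p and mmu-miR-212-5p, were followed across 13 mouse tissues, with the emphasis on brain in flight and in housing. These 3 were taken by name from the 1964 miRNAs listed in the counts of 686 small RNA libraries. The partner strand mmu-miR-132-5p is not one of the 3 and is given beside them as a reference from the same hairpin. All libraries came from female BALB/cAnNTac mice without an engineered allele, which flew to the International Space Station (FL), lived in matched flight hardware on the ground as habitat ground control (HGC), or lived in standard cages as vivarium ground control (VGC). FL and HGC shared habitat, crowding, food and temperature, so FL vs. HGC addresses flight and HGC vs. VGC addresses housing. Mice of live animal return (LAR) spent 39.5 days on the station, or the matching time on the ground, and were dissected 2 to 4 days after splashdown, after functional assays. Mice of ISS Terminal (TERM) were killed 22 to 24 days after launch, and their carcasses were frozen whole and thawed for dissection, apart from the spleen, which was taken fresh. The mice were 3 or 8 months old at the labels' age.

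Brain libraries were made from hemi-brains. LAR brain held 4 FL, 4 HGC and 4 VGC libraries, all from mice of 3 months. TERM brain held 4 FL, 5 HGC and 4 VGC libraries from both ages. Each library stands for 1 mouse of 1 arm, and mouse numbers that recur between arms belong to different animals. Mold was found on the food bars of FL and HGC, which were replaced late, FL of LAR went through a splashdown that HGC did not, and FL carcasses of TERM froze in free air on board. In these data flight cannot be told apart from splashdown in LAR or from the course of freezing in TERM, and housing cannot be told apart from the food. In whole tissue, fewer cells of a type and less RNA per cell cannot be told apart either.

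miR-132 and miR-212 are transcribed together in neurons under the transcription factor CREB, and their levels are known to follow neuronal activity and neurotrophins. From each hairpin Dicer releases a 5p and a 3p strand, and the strand that is loaded into Argonaute is kept while its partner is mostly degraded. A loaded miRNA recognises its targets mainly through the seed near its 5′ end, and miR-132-3p is known for repressing p250GAP, a regulator of dendrite and spine growth.

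The mature sequences show why the 2 hairpins are treated as 1 family. RefSeq lists them on chromosome 11, plus strand, in build GRCm38.p6 (the authors mapped to GRCm39, and coordinates were not converted). Bases 2 to 8, the seed, are in capitals.

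miR-132-3p: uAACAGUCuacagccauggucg

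miR-212-3p: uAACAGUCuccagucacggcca

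miR-212-5p: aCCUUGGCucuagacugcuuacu

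miR-132-5p: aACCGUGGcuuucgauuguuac

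miR-132-3p and miR-212-3p had the same bases at 17 of 22 positions and the same first 9 bases, so they share 1 seed. Counted from the 5′ end, with the miR-132-3p base first, the 5 differences were A10C, C14U, U17C, U20C and G22A. Among 1679 mature mouse miRNAs in RefSeq that seed occurred in 2, which were these strands. miR-212-5p and miR-132-5p carried seeds that no other listed mature miRNA had. Their 22 or 23 bases make the 4 strands comparable in length. None of the 686 values of any of the 4 strands carried a fraction, which is how a read divided between miRNAs would appear.

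Both hairpins lie close together. Mir212 spans chr11:75173388-75173478 and Mir132 spans chr11:75173682-75173747, with 203 bases between them. They are printed with both mature strands in capitals, 5p first.

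Mir212 hairpin: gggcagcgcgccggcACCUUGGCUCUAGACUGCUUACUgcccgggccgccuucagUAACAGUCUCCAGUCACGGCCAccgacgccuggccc

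Mir132 hairpin: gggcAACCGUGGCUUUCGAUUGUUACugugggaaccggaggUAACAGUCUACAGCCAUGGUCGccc

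Within them miR-212-5p lies at chr11:75173403-75173425, miR-212-3p at chr11:75173443-75173464, miR-132-5p at chr11:75173686-75173707 and miR-132-3p at chr11:75173723-75173744. Both hairpins fall in an intron of the non-coding gene 1700016P03Rik (chr11:75172560-75177633, plus strand), between an exon that ends at 75172597 and one that starts at 75173978, and overlap none of its exons.

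Levels are given as CPM, the count scaled to the total miRNA counts of the library. Libraries held 0.181 to 30.5 M miRNA counts with a median of 3.88 M, and brain libraries 0.598 to 10.0 M with a median of 6.56 M. At the brain median a single count is worth well under 1 CPM, so that the depth limits miR-212-5p and not the other strands. Each library was also compared with the miRNA profile of its labelled tissue over 651 miRNAs. By that comparison 166 libraries lay closest to another tissue, none of them from brain, and 11 libraries with another label lay closest to brain. In 11 of 44 pools (libraries sequenced together) more than 1 in 3 libraries lay closest to another tissue, and those pools held 168 libraries, 2 of them from brain. The 7 brain markers, among them miR-124-3p and miR-9-5p, were detected in all 25 brain libraries and summed to 83537 to 314219 CPM. The lowest sum was that of VGC mouse 5 of LAR, in 1 of those 11 pools, where the 3 striated muscle markers summed to 46930 CPM against 1634 to 3976 CPM in LAR of the other arms.

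The level of miR-132-3p moved with the pool. In 13 pools the median miR-132-3p of the libraries other than brain was 42.8 to 180 CPM, whereas in the other 31 it was 1.92 to 8.74 CPM. A boundary at 30 CPM, set after these medians were seen, divides them, and the 13 are called the high pools. Their numbers are the multiples of 3 from 3 to 42 that the series uses. Over libraries other than brain the medians were 94.1 CPM in the high pools (n = 194) and 3.22 CPM elsewhere (n = 456), a description, since miR-132-3p itself divided them. The other strands, which the boundary did not use, differed far less, with medians of 25.8 and 17.8 CPM for miR-212-3p and of 1.51 and 1.39 CPM for miR-132-5p, the partner strand on the same hairpin. The labels do not say what set these pools apart, and it was not tested. The high pools held 7 of 25 brain libraries, and the flight and housing fold changes of miR-132-3p in brain are given with and without them.

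**Figure D1:**
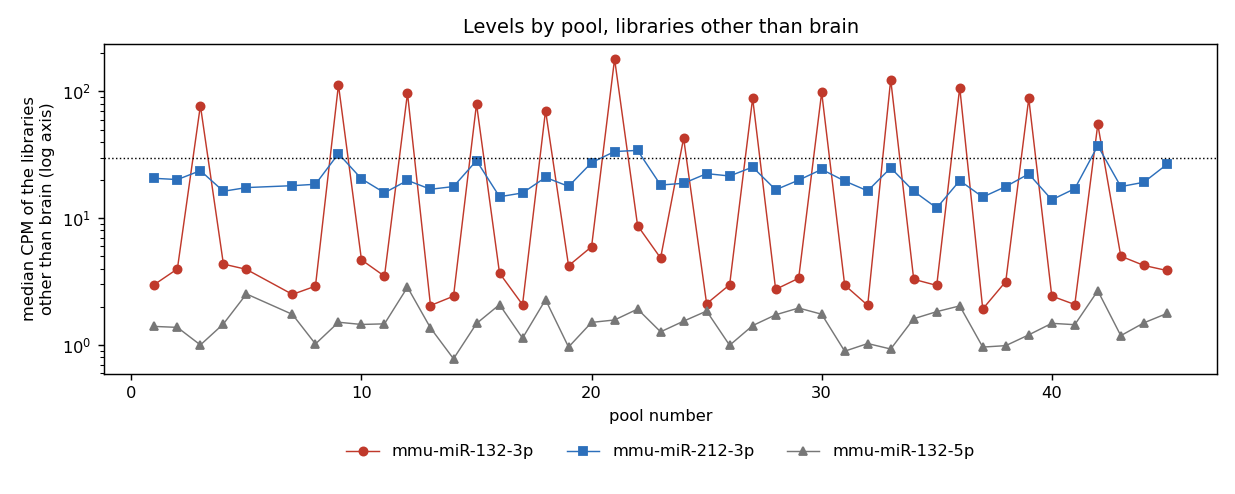
Median CPM (log axis) of miR-132-3p, miR-212-3p and miR-132-5p over the libraries other than brain in each of 44 pools, in order of pool number, with a dotted line at 30 CPM. The miR-132-3p medians of 13 pools lie at 42.8 to 180 CPM and those of the other 31 at 1.92 to 8.74 CPM, while miR-212-3p stays within 12.0 to 37.3 CPM and miR-132-5p within 0.778 to 2.85 CPM in every pool.

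miR-212-3p was highest in brain. It ranged from 524 to 1988 CPM in the 25 brain libraries, a 3.79-fold range, with a median of 982 CPM. In the 661 other libraries its median was 19.7 CPM, and in the 650 of them without a brain profile no library exceeded 166 CPM, so that these did not overlap brain. In LAR the tissue medians ran from 1056 CPM in brain to 31.6 CPM in thymus, 25.7 CPM in gonadal adipose tissue (GAT), 23.2 CPM in liver, 23.0 CPM in subcutaneous adipose tissue (SCAT) and 23.0 CPM in mesenteric adipose tissue (MAT). They continued with 20.6 CPM in kidney, 18.9 CPM in spleen, 17.5 CPM in brown adipose tissue (BAT), 16.9 CPM in lung, 16.0 CPM in heart, 13.1 CPM in pancreas and 10.1 CPM in diaphragm. In TERM brain stood at 927 CPM, followed by thymus at 39.8 CPM, MAT at 36.5 CPM, GAT at 27.0 CPM and kidney at 26.0 CPM, and diaphragm was again lowest at 11.3 CPM.

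On the log2 (CPM + 1) scale the brain median of miR-212-3p lay 5.02 above thymus in LAR and 4.51 above thymus in TERM. A permutation test of the difference of means between these neighbours gave p = 2e-05, the smallest that 100000 resamples can give, and an adjusted p of 0.00024 in LAR and 0.00036 in TERM. Apart from brain and the tissue next to it, no pair of neighbours in the order of tissues passed the adjustment for any of the 3 strands, the nearest being kidney above liver for miR-212-3p in TERM (permutation p = 0.0453, adjusted p = 0.408). Only neighbours were compared, and tissues further apart in the order were not tested. For miR-212-5p the tissues other than brain were tied at a median of 0, so that their order was alphabetical. Tissues of 1 mouse were treated as separate.

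miR-132-3p was also highest in brain, over a far wider range. Brain libraries held 18.4 to 8152 CPM, a 444-fold range, with a median of 237 CPM. The 650 other libraries without a brain profile reached 1509 CPM, so that single libraries overlapped brain. In LAR the brain median of 473 CPM was followed by 26.7 CPM in GAT, 9.52 CPM in spleen and 8.44 CPM in pancreas, and diaphragm was lowest at 2.65 CPM. In TERM brain stood at 168 CPM, followed by BAT at 16.8 CPM and GAT at 12.4 CPM, with SCAT lowest at 3.18 CPM. Brain lay 4.03 above GAT in LAR and 3.26 above BAT in TERM on the log2 (CPM + 1) scale, with the same permutation p and adjusted p as miR-212-3p. Without the high pools thymus came next in both extractions and the differences were 4.94 and 4.17.

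**Figure D2:**
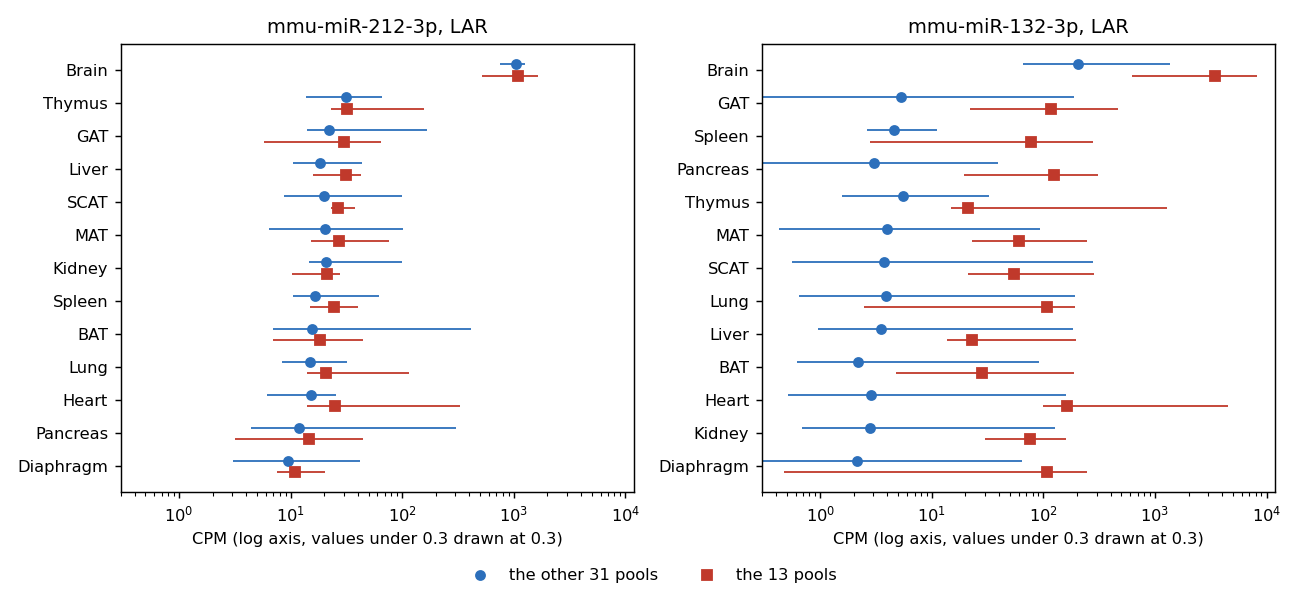
CPM (log axis) of miR-212-3p and miR-132-3p in the 13 tissues of LAR, in order of their medians over all libraries. Symbols are medians and lines run from the lowest to the highest library, with the 13 high pools (squares) apart from the other 31 (circles). For miR-212-3p both kinds of pool lie side by side in every tissue, and for miR-132-3p the medians of the high pools lie to the right in all 13 tissues.

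miR-212-5p, the partner strand of miR-212-3p, was near the limit of counting. It had 41 counts in the 153 M miRNA counts of brain (0.268 CPM pooled) and was seen in 15 of 25 brain libraries, with 0 to 6 counts each. Outside brain it had 26 counts in 2777 M (0.00936 CPM pooled) and was seen in 12 of 661 libraries, or 1.82% (95% Clopper-Pearson interval 0.941 to 3.15%). The share in brain was 60.0% (38.7 to 78.9%). A library with 0 counts allows up to 3 counts, which came to 0.299 to 5.01 CPM over the brain libraries, so that a 0 does not show absence. Intervals and limits cover counting error only. Of the 26 counts outside brain, 15 came from 1 LAR diaphragm library (VGC mouse 14) with 1.39 CPM of miR-212-5p beside 9.92 CPM of miR-212-3p, and that library was sequenced in pool 37, as was the brain library with 6 counts. On the log2 (CPM + 1) scale brain lay 0.37 above BAT in LAR (adjusted permutation p = 0.00024) and 0.18 in TERM (adjusted permutation p = 0.00312). The tissues other than brain were tied at a median of 0, so that BAT came next by name alone. Without the high pools the TERM brain median was 0 as in the other tissues, so the difference of medians was 0. The pooled level of TERM brain was then 0.198 CPM, from 11 counts in 4 of 10 libraries, against 0.241 CPM with them and 0.00448 CPM in the other tissues.

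Within brain, the 2 seed-sharing strands did not hold a fixed ratio. miR-132-3p divided by miR-212-3p ranged from 0.0241 to 7.39 over the 25 libraries. The ratio exceeded 1 in 6 of the 7 libraries of the high pools and in 1 of the 18 others, which was HGC mouse 13 of LAR at 1.29. miR-212-3p exceeded miR-212-5p by 1334 to 8691 times in the 15 libraries where both were counted. The count of miR-132-5p divided by that of miR-212-3p stayed within 0.0599 and 0.32.

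Flight and housing were compared first in LAR brain. miR-212-3p was 1146, 981, 1053 and 917 CPM in FL mice 1, 5, 13 and 17. It was 1270, 982, 1059 and 1253 CPM in HGC mice 1, 5, 13 and 17, and 1145, 524, 1649 and 759 CPM in VGC mice 1, 5, 13 and 17. The 3 arms overlapped throughout, with means ± SD of 1024 ± 98.3, 1141 ± 143 and 1020 ± 492 CPM (n = 4 each), and VGC held both the highest and the lowest library. The lowest, VGC mouse 5, was the library with the high muscle markers. By edgeR's quasi-likelihood test the log2 fold change was -0.18 (SE 0.37, adjusted p = 1) for FL vs. HGC, -0.30 (SE 0.37, adjusted p = 0.667) for FL vs. VGC and -0.12 (SE 0.37, adjusted p = 0.924) for HGC vs. VGC. On library size alone the last 2 turned to 0.00694 and 0.16.

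miR-132-3p in LAR brain was spread widely within each arm. It was 168, 111, 127 and 5682 CPM in FL mice 1, 5, 13 and 17, of which mouse 17 alone was in a high pool. In HGC mice 1, 5, 13 and 17 it was 318, 237, 1368 and 8152 CPM, with mouse 17 in a high pool. The HGC library of mouse 13 stood in place 14 of its pool, a place where libraries other than brain had a median of 50.9 CPM in the other pools against 2.99 CPM over most places. In VGC mice 1, 5, 13 and 17 it was 686, 628, 1289 and 65.8 CPM, with mice 5 and 13 in high pools. The arms overlapped, and the log2 fold changes by edgeR were -0.83 (SE 1.36, adjusted p = 1) for FL vs. HGC, 1.01 (SE 1.37, adjusted p = 0.701) for FL vs. VGC and 1.84 (SE 1.40, adjusted p = 0.616) for HGC vs. VGC.

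Without the high pools the 3 FL libraries of miR-132-3p, at 111 to 168 CPM, lay below all 3 HGC libraries, at 237 to 1368 CPM, with a log2 fold change of -2.25 (SE 0.78, adjusted p = 0.982 by edgeR). HGC vs. VGC then stood at 0.19 (SE 0.84, adjusted p = 0.925 by edgeR). Without these pools FL vs. VGC turned from 1.01 to -2.06 (SE 0.83, adjusted p = 0.301 by edgeR), and leaving out FL mouse 17 alone gave -2.77 (SE 1.25, adjusted p = 0.291 by edgeR). FL vs. HGC turned from -0.83 to 1.42 (SE 1.35, adjusted p = 1 by edgeR) when HGC mouse 17 was left out. No direction can be given for this strand in LAR brain.

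miR-212-5p had more counts in FL of LAR than in either control. The counts were 3, 6, 5 and 2 in FL mice 1, 5, 13 and 17 (0.519, 0.735, 0.626 and 0.516 CPM). They were 1, 0, 1 and 3 in HGC (0.293, 0, 0.190 and 0.299 CPM) and 0, 0, 2 and 0 in VGC, where mouse 13 was at 0.292 CPM. In CPM the lowest FL library lay above the highest library of both controls, so the values did not overlap, although in counts FL mouse 17 with 2 lay below HGC mouse 17 with 3. The 0 of VGC mouse 17 allows up to 0.609 CPM, above FL mice 1 and 17, so that at this depth an overlap with VGC cannot be set aside. In HGC mouse 1, which had 1 count, 3 counts would come to 0.880 CPM, above every FL library. An overlap with HGC cannot be set aside either. By the same rule in CPM, FL lay wholly above HGC in 0.485% of 1030 miRNAs and wholly above VGC in 7.48%. The pooled level of FL, from 16 counts, was 3.06 times that of HGC, from 5 counts (counting interval 1.07 to 10.7), and 8.65 times that of VGC, from 2 counts (2.03 to 77.5).

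An exact 2-sided permutation test gave p = 0.0286 for each of these differences in miR-212-5p, the smallest that 4 against 4 allow, and an adjusted p of 0.257 over the 18 brain tests of this kind. By edgeR the log2 fold changes were 1.46 (SE 0.89, adjusted p = 1) and 2.52 (SE 1.00, adjusted p = 0.297), neither of which passed. The strand entered these fits through FL mice 5 and 13 alone, the only LAR brain libraries with the 5 counts the filter asks for, so it was tested because of the arm where it is high. As a background, edgeR called 0.0% of 1030 miRNAs in LAR brain for FL vs. HGC, and likewise 0.0% for FL vs. VGC and 0.0% for HGC vs. VGC. At an unadjusted p under 0.05 the counts were 13, 164 and 96, and DESeq2 called 1, 21 and 4, none of them 1 of the 3 strands.

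**Figure D3:**
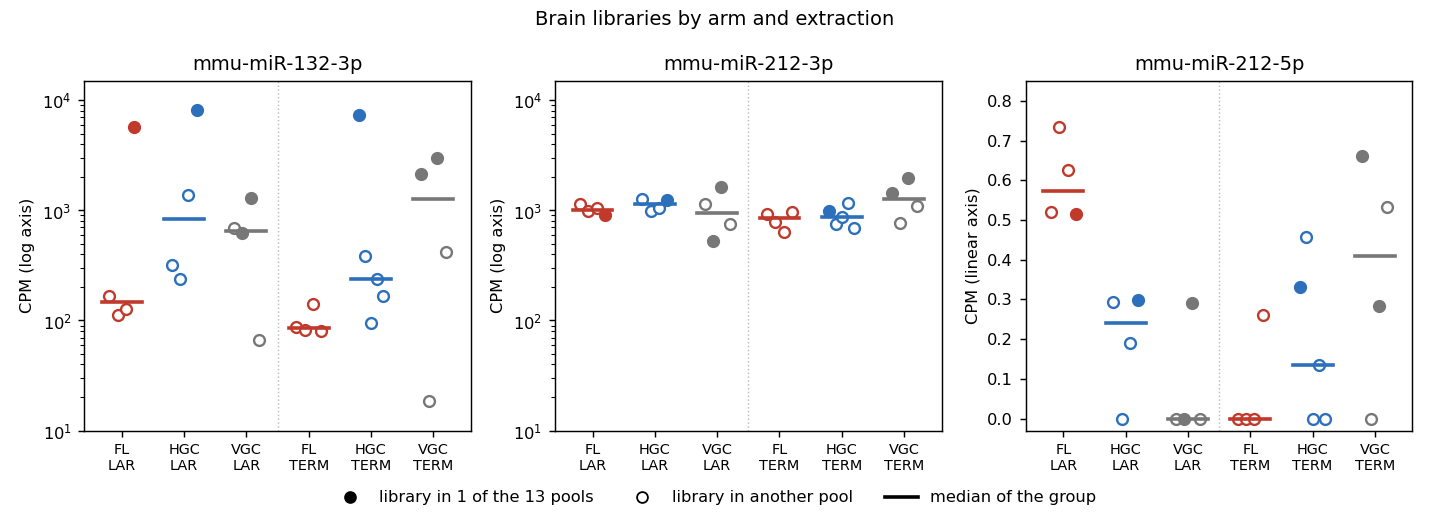
CPM of miR-132-3p and miR-212-3p (log axes) and of miR-212-5p (linear axis) in the 25 brain libraries by arm and extraction, with filled circles for libraries of the 13 high pools, open circles for the others and bars at the group medians. The highest miR-132-3p values are filled circles, the miR-212-3p groups overlap, and miR-212-5p of FL in LAR, at 0.516 to 0.735 CPM, lies above HGC and VGC of LAR.

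In TERM brain the same strands gave another picture. miR-212-3p was 927, 792, 633 and 964 CPM in FL mice 7, 8, 17 and 18. It was 990, 745, 879, 1171 and 698 CPM in HGC mice 7, 8, 9, 17 and 18, and 1440, 762, 1988 and 1087 CPM in VGC mice 7, 8, 9 and 18. FL lay within HGC apart from 1 lower library, FL mouse 17, whose striated muscle markers summed to 27293 CPM. VGC held the 2 highest libraries, both in high pools. The log2 fold changes by edgeR were -0.17 (SE 0.38, adjusted p = 1.00) for FL vs. HGC, -0.68 (SE 0.40, adjusted p = 0.816) for FL vs. VGC and -0.51 (SE 0.37, adjusted p = 0.996) for HGC vs. VGC.

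miR-132-3p in TERM brain was 87.8, 82.5, 142 and 79.7 CPM in FL mice 7, 8, 17 and 18, the tightest arm of all, and no FL library was in a high pool. In HGC mice 7, 8, 9, 17 and 18 it was 7317, 389, 95, 237 and 168 CPM, of which mouse 7 was in a high pool. In VGC mice 7, 8, 9 and 18 it was 2126, 18.4, 2970 and 419 CPM, with mice 7 and 9 in high pools. The library at 18.4 CPM was VGC mouse 8, which had 11 counts of miR-132-3p and was the shallowest brain library.

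FL vs. HGC of miR-132-3p gave a log2 fold change of -3.81 in TERM brain (SE 1.22, adjusted p = 1.00 by edgeR) and FL vs. VGC gave -3.77 (SE 1.24, adjusted p = 0.406 by edgeR). Neither passed. Without the filter on low counts FL vs. VGC did pass (log2 fold change -3.83, adjusted p = 0.0186 by edgeR), when 13 miRNAs of 1546 were called. Without the high pools the values shrank to -1.27 for FL vs. HGC and -1.09 for FL vs. VGC, and with the kind of pool in the model they were -1.40 and -0.88. HGC vs. VGC stood at 0.04 (SE 1.05, adjusted p = 0.996 by edgeR). It was 0.18 without the high pools, and moved to -2.46 when HGC mouse 7 was left out.

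miR-212-5p in TERM brain had 0, 0, 0 and 2 counts in FL mice 7, 8, 17 and 18, against 3, 3, 0, 1 and 0 in HGC and 2, 0, 2 and 5 in VGC. FL thus had the fewest counts in TERM and the most in LAR. The pooled level of FL was 0.467 times that of HGC (counting interval 0.0474 to 2.45) and 0.215 times that of VGC (0.0226 to 1.04). Neither edgeR comparison passed, with adjusted p-values of 1.00 and 0.781, and the strand entered these fits through VGC mouse 18 alone. The background in TERM brain was 0.0% of 1008 miRNAs for FL vs. HGC, 0.0% for FL vs. VGC and 0.0% for HGC vs. VGC by edgeR. There were 27, 67 and 50 at an unadjusted p under 0.05, and DESeq2 called 0, 12 and 1, with none of the 3 strands among them.

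The difference between LAR and TERM was tested in 1 model over all 25 brain libraries. For FL vs. HGC it was 2.37 for miR-212-5p (SE 1.37, adjusted p = 1.00), 0.00 for miR-212-3p (SE 0.49, adjusted p = 1.00) and 2.97 for miR-132-3p (SE 1.92, adjusted p = 1.00), all log2 values from edgeR. For HGC vs. VGC it was 2.07, 0.37 and 1.77 with adjusted p-values of 0.605, 0.839 and 0.780. These differences called 0.0% of 1088 miRNAs for FL vs. HGC and 0.0% for HGC vs. VGC, with 20 and 107 at an unadjusted p under 0.05. Opposite signs in the 2 extractions are therefore not shown to be a difference. The miR-212-5p test has a further limit. The strand entered this model only through FL mice 5 and 13 of LAR and VGC mouse 18 of TERM, where it is high.

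Age could be compared in TERM brain, with 5 libraries of 8 months and 8 of 3 months. The median of miR-212-3p was 964 CPM at 8 months and 903 CPM at 3 months, with a log2 fold change of 0.06 (SE 0.34, adjusted p = 0.978 by edgeR). For miR-132-3p the medians were 168 and 242 CPM (log2 fold change -1.65, SE 1.09, adjusted p = 0.718 by edgeR), and the 3 libraries in high pools were all from mice of 3 months. For miR-212-5p the pooled level was 0.25 CPM at 8 months, from 8 counts, and 0.234 CPM at 3 months, from 10 counts. VGC mouse 18 alone had 5 of the 8, and without it the level at 8 months was 0.132 CPM, from 3 counts (with it, log2 fold change 0.19, SE 0.83, adjusted p = 0.973 by edgeR). In the same comparison the liver marker miR-122-5p stood at 4.87 and the median of 3 exocrine pancreas markers at 3.18, none of them called.

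Over all 13 tissues, brain included, the flight and housing contrasts were read in the same way, with 1 edgeR fit for each tissue and extraction. miR-132-3p and miR-212-3p passed the filter on low counts in every tissue and make 26 tests a contrast. miR-212-5p passed in brain and, through the 15 counts of VGC mouse 14, in LAR diaphragm, was not called in either and is left out of these counts. Of the 26 tests in LAR 1 was called for FL vs. HGC, where 1.54% of 12498 tests over all miRNAs and tissues were called. None of 26 was called for FL vs. VGC, with a background of 0.736%, or for HGC vs. VGC, with a background of 0.176%. In TERM none of 26 was called in FL vs. HGC (background 0.307%), in FL vs. VGC (0.712%) or in HGC vs. VGC (0.251%). At an unadjusted p under 0.05 the 2 strands had 4, 2 and 7 of 26 tests in LAR (15.4, 7.69 and 26.9%), where all miRNAs had 12.3, 11.3 and 11.4%. In TERM they had 2, 5 and 3 of 26 (7.69, 19.2 and 11.5%), where all miRNAs had 9.17, 9.77 and 9.29%. DESeq2 called 3, 0 and 2 of the 26 tests in LAR, where it called 3.19, 1.98 and 1.91% over all miRNAs. In TERM it called 1, 0 and 1 of 26, where it called 1.54, 1.35 and 0.995% over all. A single call in 26 tests is too few to set against the background.

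The fold changes of miR-212-3p were small beside those of miR-132-3p. For FL vs. HGC in LAR they ran from -1.83 in BAT to 1.26 in pancreas, with 11 of 13 tissues below 0 and a median of -0.18. Both ends held libraries with a brain profile. In pancreas this was FL mouse 3 at 301 CPM, without which the value was 0.17 (SE 0.53, adjusted p = 0.959 by edgeR), and BAT is described below. Those of miR-132-3p ran from -0.83 in brain to 5.06 in heart (SE 1.80, adjusted p = 0.238 by edgeR). In LAR heart 4 of 6 FL libraries, 0 of 6 HGC libraries and 2 of 10 VGC libraries were in high pools. In TERM the fold changes of FL vs. HGC ran from -0.45 in kidney to 1.11 in BAT for miR-212-3p (-0.15 in BAT without 4 libraries of a brain profile) and from -3.81 to 3.67 for miR-132-3p, the latter in thymus. DESeq2 called miR-132-3p in LAR heart (5.14, adjusted p = 0.0304), LAR thymus (3.32, adjusted p = 0.0427) and TERM thymus (3.95, adjusted p = 0.0358) for FL vs. HGC. For HGC vs. VGC it called LAR heart (-6.42), LAR thymus (-4.22) and TERM spleen (3.35). In edgeR these HGC vs. VGC values were -6.22, -4.10 and 3.31, and FL vs. VGC of LAR heart was -1.16 (SE 1.41, adjusted p = 0.746).

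1 VGC library with a brain profile stood far above its group in both LAR tissues, heart mouse 13 at 4557 CPM and thymus mouse 2 at 1289 CPM. Both were in pool 21, a high pool with a median of 180 CPM. A brain profile and the kind of pool cannot be told apart in them. The group medians of LAR heart were 2.98 CPM in HGC and 3.32 CPM in VGC, and those of LAR thymus were 6.45 and 12.3 CPM. Without these libraries HGC vs. VGC was -3.02 (SE 1.17, adjusted p = 0.255) in LAR heart and -0.99 (SE 0.85, adjusted p = 0.963) in LAR thymus, by edgeR. FL vs. VGC of LAR heart turned to 2.08 (SE 1.01, adjusted p = 0.401 by edgeR) without mouse 13, and that of LAR thymus from -0.73 to 2.20 (SE 0.88, adjusted p = 0.392 by edgeR) without mouse 2. FL vs. HGC, in neither arm of which these libraries lie, stayed at 5.09 and 3.19. Without the 11 pools of many other profiles, in which both lie, edgeR called LAR heart at 5.28 for FL vs. HGC and 5.75 for FL vs. VGC, and HGC vs. VGC turned to 0.47. FL vs. HGC of TERM thymus was then 0.65 (SE 0.97, adjusted p = 0.887 by edgeR), and HGC vs. VGC of TERM spleen was 2.65 (SE 1.28, adjusted p = 1 by edgeR). Without the high pools edgeR gave LAR heart 0.00 (SE 1.45) for FL vs. HGC, -2.29 (SE 1.66) for FL vs. VGC and -2.30 (SE 1.02) for HGC vs. VGC. LAR thymus was then at -0.04 (SE 0.50) for FL vs. HGC and -0.47 (SE 0.53) for HGC vs. VGC, and TERM thymus at 1.79 (SE 0.71) for FL vs. HGC. TERM spleen stood at 3.75 (SE 1.37) for HGC vs. VGC, as large as with them. None of these was called, with adjusted p-values of 0.414 to 1 by edgeR. The high pools held 4 of 9 HGC and 2 of 8 VGC libraries in TERM spleen. In thymus they held 2 of 10 FL, 1 of 10 HGC and 4 of 10 VGC libraries in LAR, and 4 of 10 FL and 3 of 9 HGC libraries in TERM.

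**Figure D4:**
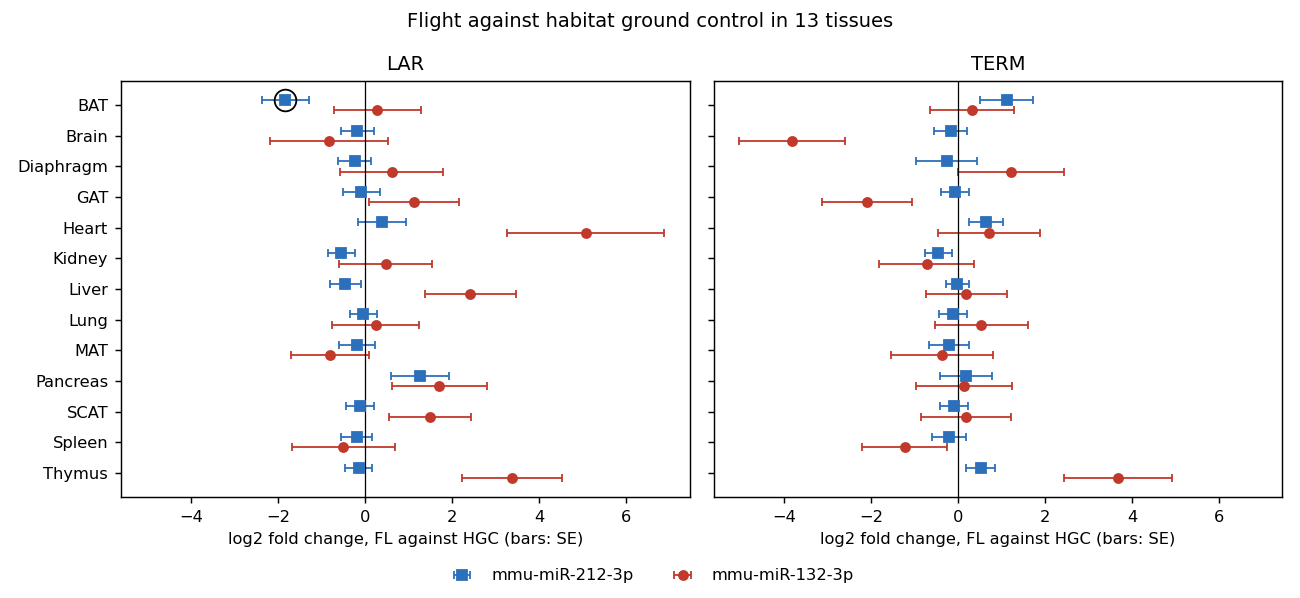
Log2 fold change of FL against HGC with its SE, by edgeR, for miR-212-3p (squares) and miR-132-3p (circles) in the 13 tissues of LAR and TERM. A ring marks the only value past an adjusted p of 0.05, miR-212-3p in LAR BAT at -1.83, and the bars of miR-132-3p are the longer ones.

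The called value, miR-212-3p in LAR BAT, was -1.83 (SE 0.53, adjusted p = 0.0370 by edgeR). In FL the 10 libraries held 6.95 to 23.5 CPM and in HGC 7.00 to 410 CPM, so that the groups overlapped. The library at 410 CPM was HGC mouse 12, which has a brain profile by the comparison above and is in 1 of the 11 pools with many such cases. Without it the next highest HGC library was at 44.2 CPM and the log2 fold change was -0.45 (SE 0.32, adjusted p = 0.474 by edgeR). The call was also lost without FL mouse 1, 2 or 12 (adjusted p = 0.0583 to 0.0654 by edgeR), and without the 11 pools the value was -0.54 (adjusted p = 0.954 by edgeR). With the replicate number as a block the value was -0.92 (SE 0.45, adjusted p = 0.506 by edgeR). It kept its size without the high pools (-2.08, adjusted p = 0.175 by edgeR) and with the kind of pool in the model (-1.78, adjusted p = 0.0705 by edgeR). HGC mouse 12 was the only single library whose omission moved the value by over 1.5 times.

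Between ages, 1 of 24 tests of miR-132-3p and miR-212-3p was called in LAR, where 0.0785% of 11468 tests over all miRNAs were called, and 0 of 24 in TERM, where 1.33% of 11656 were called. At an unadjusted p under 0.05 there were 4 in LAR (16.7%) and 5 in TERM (20.8%), where all miRNAs had 10.4% in LAR and 14.0% in TERM. The call was miR-132-3p in LAR kidney, at 4.17 on the log2 scale for 8 against 3 months (SE 0.71, adjusted p = 0.00174 by edgeR). At 3 months the 15 libraries ranged from 0.688 to 7.54 CPM with a median of 2.66 CPM, and at 8 months the 14 libraries ranged from 0.911 to 160 CPM with a median of 20.1 CPM.

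The ages in LAR kidney overlapped, since 6 libraries of 8 months lay below the highest of 3 months. No kidney library of 3 months was in a high pool, and 4 of 14 at 8 months were, at 30.0, 48.2, 103 and 160 CPM. Outside the high pools, FL mouse 12 stood at 127 CPM, HGC mouse 16 at 33.2 CPM and VGC mouse 4 at 116 CPM. VGC mouse 4 was in place 14 of its pool and HGC mouse 16 in place 6, where the median of the other pools was 9.73 CPM. Without the high pools the value was 3.26 (SE 0.64, adjusted p = 0.0224 by edgeR), and with the kind of pool in the model it was 3.32 (adjusted p = 0.0190 by edgeR). It kept its direction and lost its call without the 11 pools of many other profiles (3.24, adjusted p = 0.302 by edgeR) and without single libraries of other profiles (3.20, adjusted p = 0.114 by edgeR). Kidney libraries took part in setting which pools are high. In the same libraries miR-212-3p ran from 16.3 to 36.9 CPM at 3 months and from 10.2 to 99.1 CPM at 8 months and was not called. In TERM kidney miR-132-3p differed by 0.38 between ages (SE 0.92, adjusted p = 0.941 by edgeR), and the difference between the extractions was not tested.

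**Figure D5:**
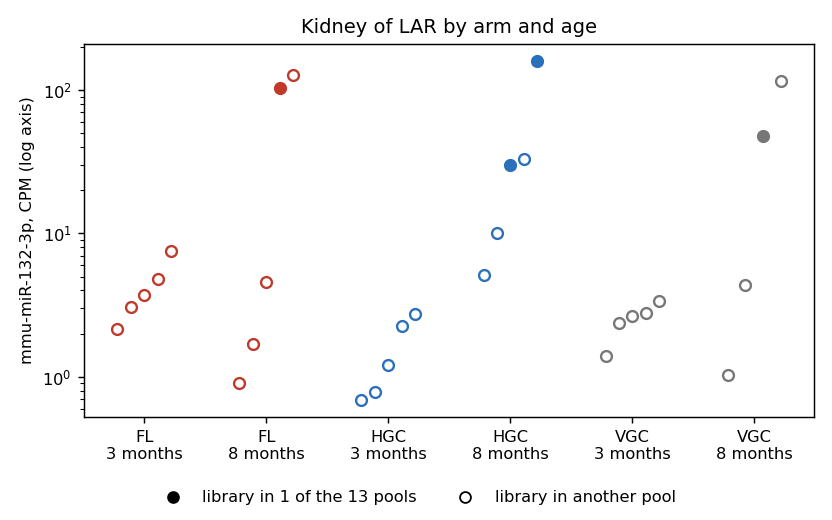
CPM (log axis) of miR-132-3p in each LAR kidney library by arm and age, with filled circles for libraries of the 13 high pools and open circles for the others. All libraries of 3 months lie at 0.688 to 7.54 CPM, and those of 8 months spread from 0.911 to 160 CPM, with filled and open circles among the highest.

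The dependence of the flight difference on age was tested in tissues with both ages. For the same 2 strands 0 of 24 tests were called in LAR, against a background of 0.113%, and 1 of 24 in TERM, against 1.06%. At an unadjusted p under 0.05 there were 3 and 5 (12.5 and 20.8%), where all miRNAs had 9.29 and 10.7%. The called value was miR-212-3p in TERM BAT, where FL vs. HGC at 8 months minus FL vs. HGC at 3 months was -3.80 on the log2 scale (SE 1.02, adjusted p = 0.0201 by edgeR). At 3 months FL held 17.0, 17.4, 32.3, 204 and 236 CPM and HGC 5.83, 13.2, 15.3, 17.6 and 36.4 CPM. At 8 months FL held 4.51, 11.2, 14.7, 17.2 and 18.6 CPM and HGC 14.3 to 103 CPM with a median of 20.7 CPM.

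The 3 highest of those BAT libraries, FL mice 1 and 4 and HGC mouse 11, were all closest to brain in profile. The value was -3.37, -3.38 and -3.07 when each of them was left out (adjusted p = 0.0672, 0.0641 and 0.117 by edgeR). Without all libraries of another tissue's profile it was -1.69 (adjusted p = 0.307 by edgeR). The call was lost without any 1 of these 3.

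The strands were then compared with each other. The log2 ratio of miR-132-3p to miR-212-3p differed between no 2 arms after adjustment over 12 ratio tests, with exact permutation p-values of 0.111 to 0.897. For miR-212-3p to miR-212-5p, libraries without a count of the latter were left out. In LAR the mean log2 ratio was 10.75 ± 0.30 (SD) in 4 FL libraries and 12.19 ± 0.23 in 3 HGC libraries. The difference of -1.44 had an exact permutation p of 0.0286, the smallest that design allows, and an adjusted p of 0.343. It restates the higher miR-212-5p counts of FL at an even level of miR-212-3p. With 1 CPM added, which keeps HGC mouse 5 with its 0 counts, the difference was -0.58 (n = 4 each, exact permutation p = 0.0286, adjusted p = 0.343).

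Across mice the strands were not shown to vary together. Over 14 relations within brain none passed the adjustment. miR-212-3p and miR-132-3p, taken within the other pools because the 2 kinds of pool form separate clusters, had r = 0.56 in LAR (n = 8, exact permutation p = 0.152, rho = 0.67 with p = 0.0831) and r = 0.25 in TERM (n = 10, permutation p = 0.493, rho = 0.091 with p = 0.812). Without the 2 libraries farthest from the median r was 0.34 and 0.22. By Pearson's r the smallest p was that of miR-132-3p and miR-212-5p in TERM (n = 10, r = 0.66, permutation p = 0.0387, adjusted p = 0.354, rho = 0.57 with p = 0.0925), with r = 0.59 without the 2 farthest. By rank it was that of miR-212-3p and miR-212-5p in TERM (n = 13, rho = 0.62, permutation p = 0.0272, adjusted p = 0.381, r = 0.55 with p = 0.0505), with r = 0.46 without the 2 farthest.

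A list of 13 other miRNAs linked to neuronal activity and synapses gave the context. It holds miR-132-5p, miR-134-5p, known for restraining Limk1 in dendritic spines, miR-138-5p, which targets the depalmitoylating enzyme Apt1 at synapses, and miR-485-5p, known for acting on the synaptic vesicle protein SV2A, among others. All 13 were tested in brain, and none was called in any of the 6 contrasts. Their median log2 fold changes were 0.15 for FL vs. HGC, 0.03 for FL vs. VGC and 0.37 for HGC vs. VGC in LAR, beside medians over all miRNAs of 0.00, -0.09 and -0.10. In TERM they were 0.07, -0.09 and -0.05, beside 0.06, 0.09 and 0.08. The 7 brain markers, none of them called, had medians of 0.14, 0.59 and 0.13 in LAR and of 0.00, 0.00 and -0.10 in TERM. Of the markers of other cell types none was called in these fits, and the lists farthest from 0 were those of organs outside the nervous system. Those of myelin, endothelium, and blood and lymphoid cells had medians of -1.15 to 0.58 over the 6 contrasts. In LAR the medians of FL vs. VGC were -3.87 for 3 heart markers, -3.67 for the endocrine marker miR-375-3p, -3.11 for 3 exocrine pancreas markers and -2.23 for 3 striated muscle markers. Those of HGC vs. VGC were -5.0 for the heart, -3.19 for the endocrine, -2.74 for the exocrine pancreas and -2.65 for the striated muscle markers. The liver marker miR-122-5p stood at 3.26 for FL vs. VGC and 3.43 for FL vs. HGC. In TERM the medians of FL vs. VGC were 3.45 for 6 epithelial markers, of which 4 were above 0, 3.43 for the exocrine pancreas, 3.27 for the endocrine and 2.56 for the heart markers, and -2.08 for the liver marker. Those of FL vs. HGC were 2.70, 2.03 and 1.77 for the exocrine pancreas, endocrine and heart markers, 1.05 for the epithelial markers and -2.61 for the liver marker. Those of HGC vs. VGC were 2.09 for the epithelial, 1.27 for the striated muscle, 1.24 for the endocrine, 0.79 for the heart and 0.73 for the exocrine pancreas markers. These medians lean on high single libraries. In summed CPM of LAR, the FL median, VGC median and highest VGC library were 9.13, 5.39 and 188 for heart markers. They were 18.1, 12.2 and 500 for exocrine pancreas, 3383, 3182 and 46930 for striated muscle, and 139, 211 and 4518 for the endocrine marker. By these medians FL lay below VGC for the endocrine marker alone. In TERM FL the exocrine pancreas markers had a median of 17.4 and a highest library of 1698. The part of such RNA in the brain values of the strands was not tested.

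miR-132-5p, from the same hairpin as miR-132-3p, held 31.4 to 327 CPM in brain, and its medians were 137 CPM in the high pools and 141 CPM in the others. Its log2 fold change was 0.21 for FL vs. HGC in LAR (SE 0.50, adjusted p = 1 by edgeR) and -0.37 in TERM (SE 0.48, adjusted p = 1.00 by edgeR). Of the list, miR-138-5p was at medians of 8651 CPM in LAR and 9163 CPM in TERM brain, against 83.2 and 88.3 CPM in other tissues. miR-134-5p was at 222 and 294 CPM in brain against 14.7 and 12.0 CPM elsewhere. miR-191-5p, at 15637 and 13036 CPM in brain, was at 16478 and 16311 CPM in other tissues.

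The miRNAs most like each strand in tissue pattern were found from Pearson's r of the tissue medians of log2 (CPM + 1) over the 13 tissues of LAR, among 603 miRNAs (604 for miR-212-5p). As tissues share mice, and the miRNAs compared share libraries and depth, these values describe the pattern and have no test. For miR-212-3p the closest were miR-132-5p (r = 0.976), miR-873a-5p (0.975), miR-7b-3p (0.975), miR-346-5p (0.974) and miR-873a-3p (0.969), the last level with 4 more. For miR-132-3p they were miR-212-3p (0.932), miR-370-3p (0.929), miR-702-3p (0.926), miR-412-3p (0.920) and miR-325-5p (0.918), with miR-132-5p in place 6. In TERM miR-132-5p and miR-212-3p had r = 0.980, and miR-132-3p and miR-212-3p had r = 0.927. miR-212-5p had a median above 0 in brain alone, so that miR-3059-5p, miR-3093-3p, miR-873a-3p, miR-344b-3p and miR-124-5p, which had the same pattern, were tied at r = 1.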

How the data were processed

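Small RNA libraries of 13 tissues were made with an MGI kit without reported molecular identifiers and sequenced in pools of 16. The authors mapped reads to GRCm39 and miRBase 22.1 with miRMaster and deposited unnormalized values. The deposited miRNA values are expected counts, 0.790% of them with a fraction, and were rounded for tests. The deposited tRNA, rRNA, snRNA and snoRNA values are whole counts and served only for an alternative library size. Pool numbers came from the study's sample list. All columns were matched to labelled samples.

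CPM is scaled to miRNA counts (0.181 to 30.5 M a library). edgeR 4.0.16 (limma 3.58.1, R 4.3.3) fitted quasi-likelihood models per tissue and extraction with TMM factors, keeping miRNAs with at least 5 counts in 10% of an arm, and called Benjamini-Hochberg adjusted p under 0.05. SE is the absolute log2 fold change divided by the root of F. Fits were checked on simulated counts. In simulated FL vs. HGC of LAR brain, edgeR called 3% of true changes of 1 on the log2 scale and 46% of those of 2. In LAR lung it called 31% and 98%. A value not called in brain therefore does not show an absence of change. Tissue order used log2 (CPM + 1) and 2-sided permutation tests with 100000 resamples. Python 3.11.15, numpy 2.4.6, pandas 2.3.3, scipy 1.17.1 and matplotlib 3.10.9 did the rest. Alternatives were DESeq2 1.42.0 without Cook's or independent filtering, other scalings, filters, pseudocounts, a replicate block, leaving out single libraries, and the added pool settings.

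The strands and lists were chosen with earlier results of these data known. Named miRNAs are the 3 strands, the activity list, the brain markers and 5 neighbours in pattern for each strand. The study's own test was a rank-sum test on normalized values; counts were tested here. Replicates are separate mice.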

Additional observations from a re-analysis of the deposited data

Results flagged for a closer look

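Within a brain group of 4 or 5 libraries, a value was taken when its gap to the nearest library exceeded Dixon's 95% critical share of the group's range. Chance picks about 1 in 20 groups if values are normally distributed. Of 30 groups of a strand, partner strand or ratio, 10 were picked.

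miR-132-3p gave 4 of them. FL mouse 17 of LAR stood at 5682 CPM against 168 CPM in the nearest library, HGC mouse 17 of LAR at 8152 against 1368 CPM, HGC mouse 7 of TERM at 7317 against 389 CPM, and FL mouse 17 of TERM at 142 against 87.8 CPM. The first 3 of these libraries were in high pools, and the fourth was in a pool with many profiles of other tissues. The ratio of miR-132-3p to miR-212-3p picked the same 4 libraries, at 6.19, 6.50, 7.39 and 0.224. In no case was miR-212-3p of the library picked.

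miR-212-5p gave the other 2, both from 2 counts in a group otherwise at 0. They were VGC mouse 13 of LAR at 0.292 CPM and FL mouse 18 of TERM at 0.260 CPM.

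A difference between ages was picked because its own test passed. The flight difference of miR-212-3p in TERM BAT at 8 months minus that at 3 months was -3.80 on the log2 scale (adjusted p = 0.0201 by edgeR). The part of the 3 libraries with a brain profile is given with the result above.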

How the results depend on the processing

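Of 629 recomputed values 564 kept direction and side of the threshold, 26 turned direction, 19 crossed the threshold and 20 counts moved by over 1.5 times. For the brain fold changes of miR-132-3p (log2, by edgeR unless named), FL vs. HGC in LAR ran from -4.62 to 1.42 without single libraries, FL vs. VGC from -2.77 to 1.41 and HGC vs. VGC from -0.41 to 2.23. In TERM HGC vs. VGC ran from -2.46 to 0.81. FL vs. VGC in LAR was -2.06 without the high pools and -0.49 with the kind of pool in the model. HGC vs. VGC in TERM was -0.0438 with DESeq2 and -0.17 scaled to 5 classes, and FL vs. VGC passed without a filter (-3.83). For miR-212-3p, FL vs. VGC in LAR was 0.00694 on library size alone, and HGC vs. VGC was 0.16 on library size alone and 0.0791 on 5 classes. Without single libraries FL vs. VGC in LAR ran from -0.57 to -0.08, HGC vs. VGC from -0.32 to 0.10 and FL vs. HGC in TERM from -0.34 to 0.0265. LAR minus TERM without the high pools was -0.90 for miR-132-3p and 0.22 for miR-212-3p in FL vs. HGC, and -0.19 for miR-212-3p in HGC vs. VGC. Library size alone moved the median of all miRNAs in FL vs. VGC of LAR from -0.09 to 0.23.

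Same-numbered mice of different arms are different animals and were not paired. In brain their deviations correlated over 0.1 in 1 of 12 pairs of LAR and 3 of 11 of TERM. In other tissues this ran from 7 of 30 pairs in LAR lung to 16 of 26 in TERM heart. With the replicate number as a block, miR-132-3p was -2.03 for FL vs. VGC and -0.63 for HGC vs. VGC in LAR and -0.0328 for HGC vs. VGC in TERM. The LAR BAT call was then lost (0 calls), at -0.92 (adjusted p = 0.506 by edgeR).

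Counts of called strands moved as follows. FL vs. HGC of LAR, with 1 call, had 3 with DESeq2 and 0 without the high pools, with the kind of pool in the model or without libraries of other profiles, although the BAT value stayed at -2.08 without the high pools and -1.78 with the kind of pool. FL vs. VGC of LAR had 1 without the pools of other profiles, and HGC vs. VGC of LAR 2 with DESeq2. In TERM FL vs. HGC and HGC vs. VGC had 1 with DESeq2, and FL vs. VGC 1 without a filter. Age had 2 with DESeq2 and 0 without pools or libraries of other profiles in LAR, and in TERM 1 with DESeq2 and 1 without libraries of other profiles. Age by flight had 1 without the high pools in LAR, and in TERM 2 with DESeq2, 2 without the high pools and 0 without pools or libraries of other profiles. The cause of these moves was not tested.

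The difference of medians of miR-212-5p between TERM brain and the next tissue was 0 without the high pools, while the pooled level stayed at 0.198 CPM against 0.00448 CPM elsewhere. Log2 ratios of miR-212-3p to miR-212-5p were 0.13 (HGC vs. VGC, LAR), -0.26 (FL vs. VGC, TERM) and -0.29 (HGC vs. VGC, TERM) with 1 CPM added, and -0.0196 (FL vs. HGC, TERM) without the high pools. That of miR-132-3p to miR-212-3p in FL vs. VGC of TERM was 0.27 without the high pools.

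The high-pool settings, the 5-class total and leaving out libraries of other profiles or of a brain profile were chosen after seeing the data. A total of 7 classes was planned and not run. Depth limits miR-212-5p, with 41 counts in brain.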

Other observations

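Other miRNAs were compared between the high pools and the others, as a description with no test. Over 584 miRNAs in libraries other than brain whose profile fits their label, the mean log2 (CPM + 1) of the high pools exceeded that of the others by 3.59 for miR-132-3p, by which the pools were divided. Next came miR-677-5p at 1.16, miR-218-5p at 1.04, miR-668-3p at 0.96, miR-874-3p at 0.88 and miR-339-5p at 0.87, all chosen by this order after their values were seen. miR-212-3p was in place 22 at 0.38 and miR-132-5p in place 96 at 0.17.

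miR-132-3p also differed by place in some pools. On the 6 plates where running numbers give the place, the high pools had a median of 30.2 CPM in places 1 to 8 (81 libraries) and 164 CPM in places 9 to 16 (83 libraries). In the other pools the median was 50.9 CPM in place 14, 9.73 CPM in place 6 and 2.99 CPM in the remaining places, and places 1 to 8 and 9 to 16 differed little, at 3.70 and 3.04 CPM.

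The 11 libraries of other labels with a brain profile held 103 to 410 CPM of miR-212-3p and were in pools 20 to 23. They were 5 of BAT, 2 of diaphragm, 2 of heart, 1 of pancreas and 1 of thymus, and the highest miR-132-3p among them was 4557 CPM in LAR heart (VGC mouse 13).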
